A study of Canis lupus familiaris with 6 samples.

Results

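The 6 genes described here are ADM, ALDOC, SLC2A1, VEGFA, HIF1A and GAPDH, a set of genes known for the response to low oxygen or for glycolysis. They were chosen by name, with earlier results of these data known, so counts of their probes against all probes are descriptive. A probe was taken as theirs when the array lists it under a dog RefSeq transcript of the gene. In this way 18 probes were found, against 43584 probes in all, and the 6 genes stand among 1436 genes with a named probe. ADM has 1 probe (transcript NM_001003183), ALDOC 3 (NM_001286945), SLC2A1 2 (NM_001159326), VEGFA 2 (NM_001003175), HIF1A 3 (NM_001287163) and GAPDH 7 (NM_001003142). Probes of a gene are numbered here from the brightest, so that probe 1 is the brightest.

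The cells were MDCK-II, an established dog kidney tubule epithelial line, and all of them carried the tetracycline-inducible hairpin against scribble, a scaffold protein of cell polarity (scribKD cells). The arm with tetracycline received 5 µg/ml of it 6 h after plating at 154000 cells per well, and the arm without tetracycline received none. Total RNA was taken at 30, 45 and 60 h and measured on 6 one-colour arrays, 1 for each arm and time, each of RNA mixed from 3 wells. By the sample labels these are hours cultured with or without tetracycline, and the labels do not say whether they count from plating. No array holds hairpin-free cells given tetracycline, so the hairpin and the drug cannot be told apart, and the depth of the knockdown was not analysed here because SCRIB has no named probe.

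In cells with enough oxygen, prolyl hydroxylases mark the transcription factor subunit HIF-1alpha, the product of HIF1A, for destruction through the VHL ubiquitin ligase, so that HIF-1alpha is controlled mainly at the protein and not the transcript level. When oxygen falls the protein persists, pairs with ARNT and switches on genes for glucose uptake, glycolysis, vessel growth and vasodilation. Among its known targets are SLC2A1, the glucose transporter GLUT1, which in kidney tubule cells sits on the basolateral membrane, VEGFA, the main growth factor of blood vessels, ADM, the vasodilator peptide adrenomedullin, and the glycolytic enzymes. ALDOC and GAPDH encode 2 such enzymes, the C form of aldolase and glyceraldehyde-3-phosphate dehydrogenase.

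A level is given as log2 of the processed spot signal less the 75th percentile of its array, so 0 is the 75th percentile, and differences are in log2 units with minus without tetracycline. Levels of different probes are not set against each other, since probes bind with different strength, except in the marker sums below. A gene's part of such a sum therefore describes the sum and not the amount of its transcript. All 18 probes were well above background on all 6 arrays and none was saturated, so every value given for these probes is a measured one. As a yardstick of technical error, spots of 1 probe on 1 array had a median SD of 0.077, over 138 combinations of probe and array with at least 5 spots. With 1 array per condition there is no spread between cultures. The p-values below set a difference against its variation over the 3 times, or a change over time against its variation between the 2 arms. Each SE and p-value is moderated by limma, which draws that variation toward a prior shared by all probes. For arms and time, 2 residual degrees of freedom join 2.38 of the prior.

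Across all arrays 64.3% to 68.8% of the non-control spots were well above background. The 30 h pair lies on slide 1 and the 60 h pair on slide 2, while at 45 h the array with tetracycline is on slide 2 and the one without on slide 1. Of 19 epithelial and tubule markers 8 had a probe, 7 of them well above background on all 6 arrays, namely KRT19, CGN, TJP1, OCLN, CLDN2, CLDN3 and CDH1. Their summed signal, in multiples of the 75th percentile, was 107 to 118 with tetracycline and 130 to 133 without, and its part in the differences below was not tested. At the mean log2 levels of each arm KRT19 and CGN made up 65.5% and 23.5% of the sum with tetracycline and 66.5% and 24.0% without. By single markers 3 were lower with tetracycline at all 3 times (KRT19, CGN and TJP1) and 2 higher (OCLN and AQP1, the last well above background on 4 of 6 arrays). The rest changed sign over the times. CLDN2 stood at 0.059, -0.38 and -1.64, CDH1 at -0.013, 0.066 and 0.51, and CLDN3 at -0.12, -0.13 and 0.077. Fibroblast markers (5 of 10 measured) summed to 3.60 to 3.74 with tetracycline and 3.26 to 3.76 without, with DCN not well above background on any array. COL1A2 and THY1 (mean levels 1.15 and 0.19) make up most of that sum, which hardly reflects COL1A1 (-3.32). Of 4 fibroblast markers tested, COL1A1 alone kept its direction, higher with tetracycline at 0.26, 0.70 and 0.82 (limma adjusted p = 0.134 for the mean). Leukocyte markers (3 of 11 measured) summed to 0.0989 to 0.114 with and 0.0975 to 0.113 without, with MS4A1 not well above background anywhere. Endothelial markers had 2 of 8 measured, VWF and KDR, both well above background on all 6 arrays, with sums of 22.0 to 24.7 with and 23.1 to 24.1 without. VWF (mean level 4.54) makes up nearly all of that sum, so it does not reflect KDR (-2.56), whose differences are given below.

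The comparison of the arms asks how these transcripts stand in cells given the inducer of the hairpin. SLC2A1 was the 1 gene of the 6 that reached a 2-fold difference at any time, at 60 h, and it was higher with tetracycline. ADM was lower with tetracycline at all 3 times and HIF1A was slightly higher at all 3. ALDOC was lower at 60 h, while VEGFA and GAPDH stayed between -0.34 and 0.23 at every probe and time. None of these differences passed an adjusted p of 0.05 over all probes (limma). RNA was taken from whole wells, so a change in the RNA per cell and a change in the share of cells that make it cannot be told apart.

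**Figure D1:**
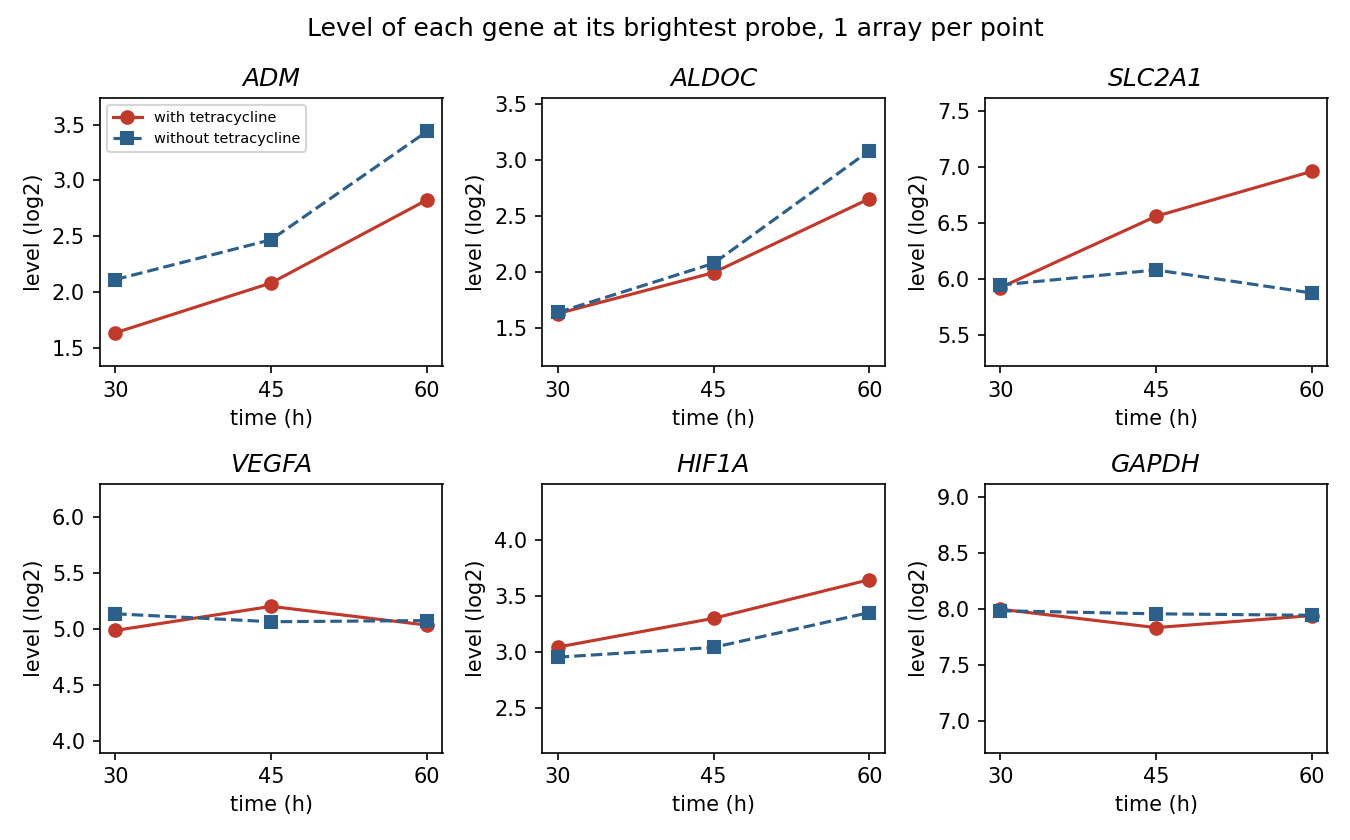
Level of each of the 6 genes at its brightest probe (log2 of the processed signal less the 75th percentile of the array, y axis, same span in every panel) against time (x axis, 30, 45 and 60 h), with tetracycline (red circles) and without (blue squares), 1 array per point and no error bars. ADM and ALDOC climb in both arms, SLC2A1 parts from 5.92 with and 5.94 without tetracycline at 30 h to 6.96 with and 5.87 without at 60 h, and VEGFA and GAPDH lie nearly flat.

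SLC2A1 had levels of 5.92, 6.56 and 6.96 at 30, 45 and 60 h with tetracycline, against 5.94, 6.08 and 5.87 without (probe 1). The arrays with tetracycline at 45 and 60 h stand above all the others, and the 30 h array with tetracycline lies among those without. The difference was -0.023 at 30 h, 0.48 at 45 h and 1.09 at 60 h, or 2.13-fold higher at 60 h. Probe 2 gave levels of 2.56, 3.33 and 3.65 with tetracycline and 2.52, 2.71 and 2.37 without, with differences of 0.035, 0.62 and 1.28, the last 2.43-fold. Both probes thus show arms that are level at 30 h and part afterwards. The 30 h and 60 h differences each come from a pair on a single slide.

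Averaged over the times, SLC2A1 differed by 0.52 ± 0.23 at probe 1 and 0.65 ± 0.25 at probe 2 (SE, 3 pairs of arrays; limma adjusted p = 0.262 and 0.227). At probe 1 the mean was 0.78 without the 30 h pair and 0.23 without the 60 h pair. The slope of the difference, which asks whether the gap between the arms changes with time, was 0.56 ± 0.070 per 15 h at probe 1 and 0.62 ± 0.069 at probe 2 (SE). Its adjusted p was 0.112 and 0.107 (limma), so it did not pass either. For probe 1 it passed with normexp background correction (0.00737) and with a trended and robust prior (0.00690), under which 1592 and 1842 probes passed in all. With 1 residual degree of freedom the test of the slope rests largely on the prior shared by all probes. Over all probes 0 passed for the slope (0%), and 5381 (19.1%) had an unadjusted p under 0.05, with 4 of the 18 among them, both SLC2A1 probes and ALDOC probes 2 and 3.

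ADM had levels of 1.64, 2.08 and 2.83 with tetracycline, against 2.11, 2.47 and 3.44 without. At each time the array with tetracycline is the lower one, but the arms overlap as a whole because both climb with time. In fold terms ADM was lower by 1.39 times (30 h), 1.31 times (45 h) and 1.53 times (60 h). The mean of these differences was -0.49 ± 0.078 (limma SE, 3 pairs of arrays, limma adjusted p = 0.114). Its difference had no clear slope (-0.068 ± 0.083 per 15 h, SE; limma adjusted p = 0.698). Over 19 alternative settings the mean difference lay between -0.54 and -0.43 and the adjusted p between 0.0711 and 0.651. These settings are not all separate checks. Leaving out a single array gave the same fit as leaving out its pair, and a term for slide the same as leaving out the 45 h pair. A change of detection filter, of prior or of the term for time left the estimate at -0.49 by construction.

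HIF1A had levels of 3.04, 3.30 and 3.65 with tetracycline, against 2.95, 3.04 and 3.35 without (probe 1). Within each time the array with tetracycline is the higher, by 0.090, 0.26 and 0.29, and the arms overlap across times. The others gave 0.047, 0.22 and 0.38 at probe 2 and 0.063, 0.16 and 0.38 at probe 3, so that all 3 probes were higher at all 3 times. The difference at 30 h is of the size of the spot error, and with normexp it was -0.020 at probe 2. The mean difference was 0.21 ± 0.077 at probe 1, 0.22 ± 0.091 at probe 2 and 0.20 ± 0.090 at probe 3 (SE, 3 pairs; limma adjusted p = 0.207, 0.250 and 0.270).

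ALDOC had levels of 1.63, 1.99 and 2.65 with tetracycline, against 1.64, 2.08 and 3.08 without (probe 1). The arms are level at 30 and 45 h, and at 60 h the array with tetracycline is the lower one. The difference at 60 h was -0.43 at probe 1, -0.41 at probe 2 and -0.51 at probe 3, or 1.35-, 1.33- and 1.42-fold lower. At 30 h the probes differed in sign, with -0.010, 0.089 and 0.21, and probe 1 was at 0.12 there with normexp. The slope was -0.21, -0.25 and -0.36 per 15 h (limma adjusted p = 0.284, 0.208 and 0.148), and the mean difference had an adjusted p of 0.388, 0.486 and 0.649. At probe 1 that mean was -0.17, against -0.26 without the 30 h pair and -0.047 without the 60 h pair.

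VEGFA had levels of 4.99, 5.20 and 5.04 with tetracycline, against 5.14, 5.07 and 5.08 without (probe 1), with no order kept between the arms. Its difference was -0.15, 0.14 and -0.041, and the mean was -0.018 ± 0.086 (SE, 3 pairs; limma adjusted p = 0.923). Probe 2, a dim one at a mean level of -4.36, gave -0.34, 0.23 and 0.036. Both probes were lower with tetracycline at 30 h and higher at 45 h. The mean of probe 1 became 0.048 without the 30 h pair.

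GAPDH, often used as a loading control, had levels of 8.0004, 7.84 and 7.94 with tetracycline, against 7.99, 7.96 and 7.95 without (probe 1). All 7 probes lay between 0.013 and 0.065 at 30 h and between -0.12 and 0.027 at 45 h. At 60 h they lay between -0.15 and -0.0028. All these values are below 0.17 in size, the 90th percentile of the SD over spots of 1 probe on 1 array. That SD holds the error within an array and not the error between arrays. Mean differences of the probes ran from -0.038 to 0.0071, and no direction is given for them, since that of probe 1 was -0.038 here and 0.058 with normexp (limma adjusted p = 0.788 and 0.594).

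**Figure D2:**
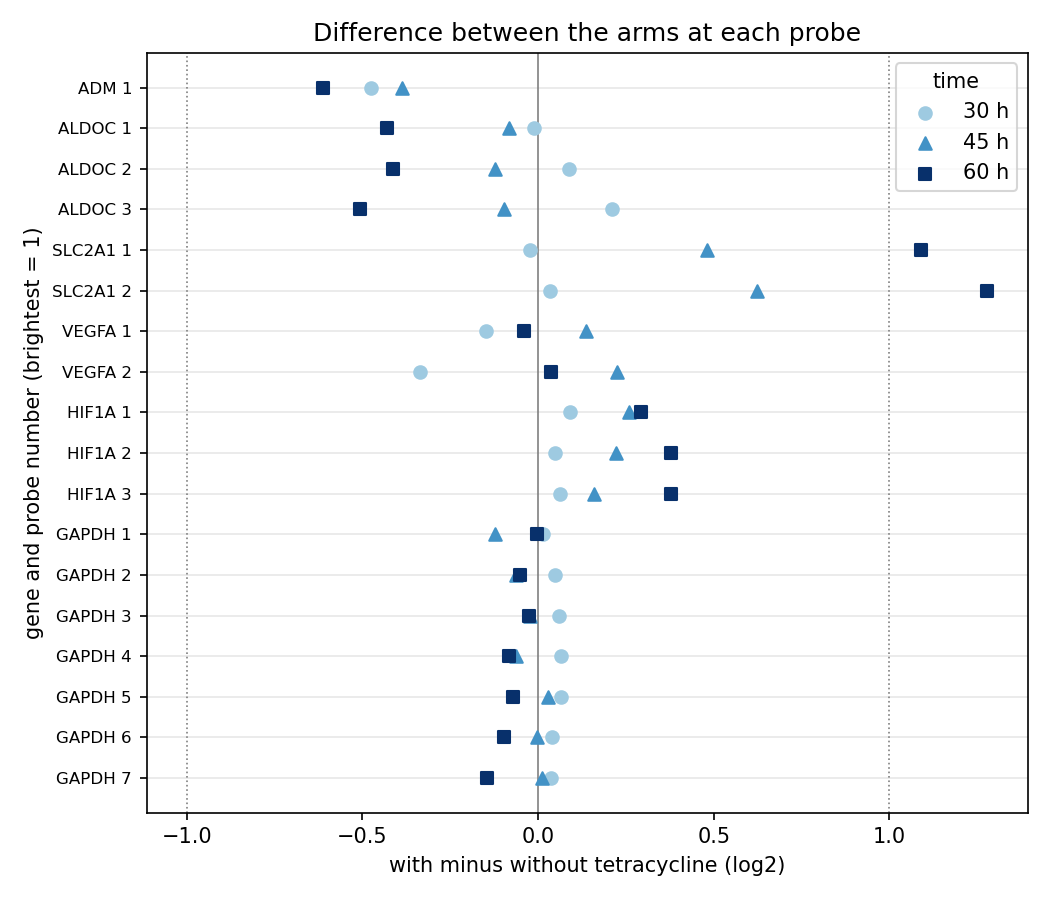
Difference between the arms (with minus without tetracycline, log2, x axis) at each of the 18 probes (rows, numbered from the brightest in each gene) at 30, 45 and 60 h (circles, triangles and squares), 1 pair of arrays per point; dotted lines mark 2-fold. The 2 SLC2A1 squares lie right of the 2-fold line at 1.09 and 1.28, ADM lies left of 0 throughout and the 7 GAPDH probes gather at 0.

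Counted over probes, 4 of the 18 were higher with tetracycline at all 3 times, namely the HIF1A probes and SLC2A1 probe 2, where 28% of the 28178 probes tested did so. With normexp neither SLC2A1 probe 2 nor HIF1A probe 2 kept that order. In the other direction were 2, ADM and ALDOC probe 1, against 21.6% of all probes, and with normexp ADM alone. At 60 h 2 of 18 probes were at least 2-fold higher, both of SLC2A1, against 3.05% of probes, and 0 were at least 2-fold lower, against 4.62%. At 30 h 0 of 18 differed 2-fold (3.51% of all probes in either direction) and at 45 h again 0 (4.96%). For 0 of the 18 probes did all arrays of one arm lie above or below all of the other, which 11.9% and 10.3% of probes did. With limma 0 of 28178 probes passed an adjusted p of 0.05 for the arms, a share of 0%, while 6570 (23.3%) had an unadjusted p under 0.05, 2 of the 18 among them (ADM and HIF1A probe 1). Probes of 1 gene share their transcript and are not independent, and the genes were chosen with earlier results known, so these counts are descriptive.

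The time courses ask how the transcripts move as the culture ages in each arm. ADM and ALDOC rose from 30 h to 60 h over both arms, more than 2-fold each, and HIF1A was higher at 60 h by less and did not pass. SLC2A1 was higher at 60 h than at 30 h with tetracycline and slightly lower without. GAPDH and VEGFA probe 1 hardly moved. ADM and all 3 ALDOC probes passed an adjusted p of 0.05, 4 of the 18 probes, where 8.16% of all probes passed in either direction 3.94% upward and 4.22% downward (limma). At an unadjusted p under 0.05 were 8 of the 18, against 31.4% of all probes. The genes were chosen with earlier results of these data known, so these shares and those counted below are descriptive.

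In ADM the steps with tetracycline were 0.45 from 30 h to 45 h and 0.74 from 45 h to 60 h, and those without were 0.36 and 0.97. Each arm climbs at each step, and the second step is the larger one in both. From 30 h to 60 h ADM was 2.28-fold higher with tetracycline and 2.50-fold higher without, a mean change of 1.26 ± 0.096 (SE, 2 arrays per time; limma adjusted p = 0.0366).

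ALDOC probe 1 moved by 0.37 and 0.66 with tetracycline and by 0.44 and 1.01 without. Over the 30 h in between it was 2.04-fold higher with tetracycline and 2.73-fold higher without, a mean change of 1.24 ± 0.13 (SE; limma adjusted p = 0.0369). The other probes gave the same picture, at 2.01-fold with and 2.85-fold without tetracycline for probe 2 (mean 1.26, adjusted p = 0.0369), and 2.09-fold with and 3.43-fold without for probe 3 (mean 1.42, adjusted p = 0.0381). At all 3 probes the array without tetracycline at 60 h is the highest of the 6.

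For HIF1A the steps of probe 1 were 0.26 and 0.35 with tetracycline and 0.087 and 0.31 without. From 30 h to 60 h its level was 1.52-fold higher with tetracycline and 1.32-fold without, a mean change of 0.50 ± 0.095 (SE, 2 arrays per time) that missed the threshold (limma adjusted p = 0.0527). Probes 2 and 3 changed by 0.47 and 0.45 (adjusted p = 0.0738 and 0.0760). Probe 1 passed with quantile scaling (0.0450), with normexp (0.0253), with a trended and robust prior (0.0278) and among probes well above background on all 6 arrays (0.0449). It did not pass with each array less its median (0.0728), without a term for arm (0.150), with no detection filter (0.185), with slide in the model (0.43, adjusted p = 0.938) or with an array or the 45 h pair left out (0.41 to 0.59, adjusted p of 0.108 to 0.191).

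SLC2A1 moved by 0.64 and 0.40 with tetracycline at probe 1, and by 0.13 and -0.21 without. From 30 h to 60 h this came to 1.04, or 2.06-fold higher, with tetracycline and to -0.071 without. Probe 2 gave 1.09 with and -0.15 without. At both probes the step is positive with tetracycline and close to 0 without, and the test of that difference between the arms is the slope given above, which did not pass. Over both arms the mean change was 0.48 ± 0.28 at probe 1 (SE; limma adjusted p = 0.305). That mean was 0.055 and 0.081 without the 60 h or the 30 h array with tetracycline, and 0.91 and 0.89 without the 60 h or the 30 h array without tetracycline.

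VEGFA probe 1 moved by 0.048 from 30 h to 60 h with tetracycline and by -0.060 without. Its dim probe 2 gave 0.90 with and 0.53 without, a mean change of 0.72 ± 0.16 (SE; limma adjusted p = 0.0655), which was 0.18 with normexp. The 2 probes therefore disagree about VEGFA over time, and only probe 1 is far from background. Which transcripts each of them detects was not analysed here.

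At the 7 GAPDH probes the step from 30 h to 60 h lay between -0.23 and -0.057 with tetracycline and between -0.063 and 0.039 without. All 7 were lower at 60 h with tetracycline and 3 of 7 without. None of them changed by the test over both arms, with mean changes from -0.14 to -0.020 and a smallest adjusted p of 0.357 (limma).

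**Figure D3:**
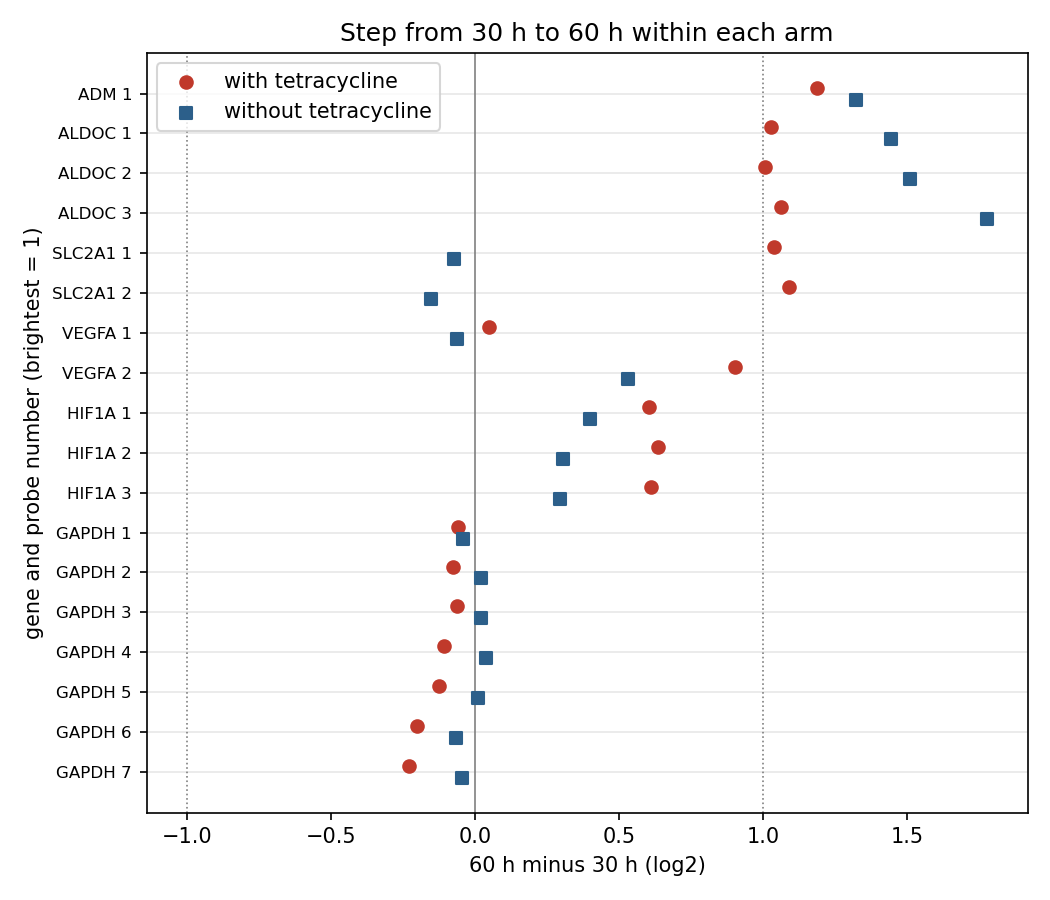
Step in level from 30 h to 60 h (log2, x axis) at each of the 18 probes (rows, numbered from the brightest in each gene) with tetracycline (red circles) and without (blue squares), 1 pair of arrays per point; dotted lines mark 2-fold. ADM and ALDOC lie right of the 2-fold line in both arms, while for SLC2A1 the step is 1.04 and 1.09 with and -0.071 and -0.15 without tetracycline.

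Counted over probes, 6 of 18 were at least 2-fold higher at 60 h than at 30 h with tetracycline (ADM, ALDOC and SLC2A1), against 3.92% of probes, and 4 of 18 without (ADM and ALDOC), against 5.36%. The count with tetracycline was 3 with normexp, where no ALDOC probe reached 2-fold (0.72 to 0.98), and 3 with each array less its median, where 1 probe each of ADM, ALDOC and SLC2A1 did, while the count without tetracycline was 4 under both. None was 2-fold lower in either arm (2.77% of probes with and 2.59% without). A climb at each step in both arms was seen at 8 of the 18 probes, those of ADM, ALDOC and HIF1A and VEGFA probe 2, against 15.2% of all probes. SLC2A1 and VEGFA probe 1 make up the 3 of 18 probes that were higher at 60 h with tetracycline and lower without, against 15.1% of all probes. Opposite steps in either order were seen at 7 of the 18, against 31.7% of all probes. For the single steps 0 of 28178 probes passed over both arms (limma, a share of 0% each), and 2649 (9.4%) had an unadjusted p under 0.05 from 30 h to 45 h and 4344 (15.4%) from 45 h to 60 h.

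The contrast of 60 h with 30 h also holds the change from slide 1 to slide 2. Steps within a slide were measured from 30 h to 45 h without tetracycline and from 45 h to 60 h with it. They were 0.74 with and 0.36 without for ADM, 0.66 with and 0.44 without for ALDOC, 0.35 with and 0.087 without for HIF1A and 0.40 with and 0.13 without for SLC2A1 (probe 1 of each). When slide was added to the model, the change was 1.099 for ADM and 1.1003 for ALDOC, but neither passed (limma adjusted p = 0.938 for both). Both calls were likewise lost when any single array or the 45 h pair was left out (adjusted p of 0.0629 to 0.170, with ADM at 1.17 to 1.35 and ALDOC at 1.05 to 1.43), settings under which 0 probes passed in all.

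Among 967 other named genes well above background on all 6 arrays, those whose levels followed each gene most closely over the 6 arrays are given as a description, the arrays sharing their arms, times and slides. For ADM they were VNN1, a pantetheinase (Pearson r = 0.987), the organic cation transporter SLC22A2 (0.986) and ANXA4 (0.984). ALDOC was followed by OAZ3 (0.990), an antizyme, the vitamin B12 and albumin receptor gene CUBN of the proximal tubule (0.989) and again VNN1 (0.989). SLC2A1 was followed by CPT1A, which brings fatty acids into mitochondria (0.990), the VEGF receptor KDR (0.988) and SLC5A3, a sodium-coupled inositol transporter (0.986). HIF1A had PIK3C3 (0.987), INS (0.973) and DYNLT3 (0.973). For VEGFA, VWF (0.970), INSL3 (0.967) and CRYGD (0.951), and for GAPDH, RPL3 (0.904), UCP2 (0.894) and LGALS4 (0.884), are given for genes that varied little over the arrays.

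The wider pathway was read from 6 lists of glycolytic enzymes, glucose and lactate transporters, pyruvate oxidation and gluconeogenesis, oxygen sensing, hypoxia-induced targets, and adrenomedullin and VEGF ligands and receptors. Besides the 6 genes, 25 genes of the lists had a named probe and 19 were tested at their brightest one. None of the 19 passed the test for the arms or for time (limma), where 0% and 8.16% of all probes did. At an unadjusted p under 0.05 were 3 of 19 for the arms, against 23.3% of all probes, and 5 of 19 for time, against 31.4%. Over the 19 the median difference between the arms was -0.015 and the median change over time 0.071, against 0.014 and 0.023 for all probes tested. SLC2A4, SLC5A1, ANGPT2 and CALCB were not well above background on any array, and LDHC and CXCL12 were so on 1 of 6.

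Of 5 glycolytic enzymes tested at their brightest probe, 3 had values below 0 at all 3 times, as 21.6% of all probes did, but ALDOC and PKLR lay within the spot error at 30 h. The isomerase gene TPI1 stood at -0.11, -0.15 and -0.16, and PKLR, the liver and red cell pyruvate kinase, at -0.026, -0.17 and -0.21. The lactate dehydrogenase subunit LDHB stood at 0.024, -0.13 and -0.26. ALDOC alone passed the test over time, and LDHB changed by 0.18 and TPI1 by -0.12.

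Among 3 transporters tested, SLC5A2, the sodium-coupled glucose transporter SGLT2, stood at 0.030, 0.23 and 0.31 between the arms. Its mean level of -5.49 is near the floor, as the lowest well-above-background value of an array was -5.55 to -6.09. The urate transporter SLC2A9, well above background on 4 of 6 arrays, scattered at -1.65, -1.50 and 1.58. In gluconeogenesis PCK1, the cytosolic phosphoenolpyruvate carboxykinase, was level at 30 and 45 h (-0.13 and -0.033) and lower with tetracycline at 60 h (-1.42). Its step from 30 h to 60 h was 0.29 with and 1.59 without tetracycline. DLD, a subunit of the pyruvate dehydrogenase complex, stood at 0.14, 0.078 and 0.12.

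VHL, which marks HIF-1alpha for destruction, was lower with tetracycline at -0.14, -0.57 and -0.61, a mean of -0.44 ± 0.12 (SE, 3 pairs; limma adjusted p = 0.158), and changed by -0.52 from 30 h to 60 h (adjusted p = 0.0986).

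Of 11 hypoxia-induced targets tested, 4 were higher and 1 lower at all 3 times, against 28% and 21.6% of all probes, and ADM alone passed the test over time. The haem oxygenase HMOX1 stood at -0.012, 0.82 and 1.71 (limma adjusted p = 0.239 for the mean). The slope of its difference was 0.86 per 15 h and did not pass (limma adjusted p = 0.106). As with SLC2A1, the step of HMOX1 from 30 h to 60 h was positive with tetracycline (1.02) and negative without (-0.70). NDRG1, a stress-induced gene, stood at 0.067, 0.44 and 0.75 and changed by 0.73 over time (adjusted p = 0.0793), and the transferrin receptor TFRC changed by -0.76 (adjusted p = 0.0518). HMOX1 and TFRC also respond to signals other than oxygen.

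Among ligands and receptors, KDR, the main VEGF receptor, stood at -0.026, 0.29 and 0.53. ACKR3, an atypical receptor that binds CXCL12 and adrenomedullin, stood at -0.85, -0.49 and 0.73, with a step of 0.12 with and -1.45 without tetracycline. The calcitonin receptor CALCR stood at -0.22, 0.21 and -0.038. None of them passed a test (limma adjusted p of 0.289, 0.746 and 0.951 for the arms).

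**Figure D4:**
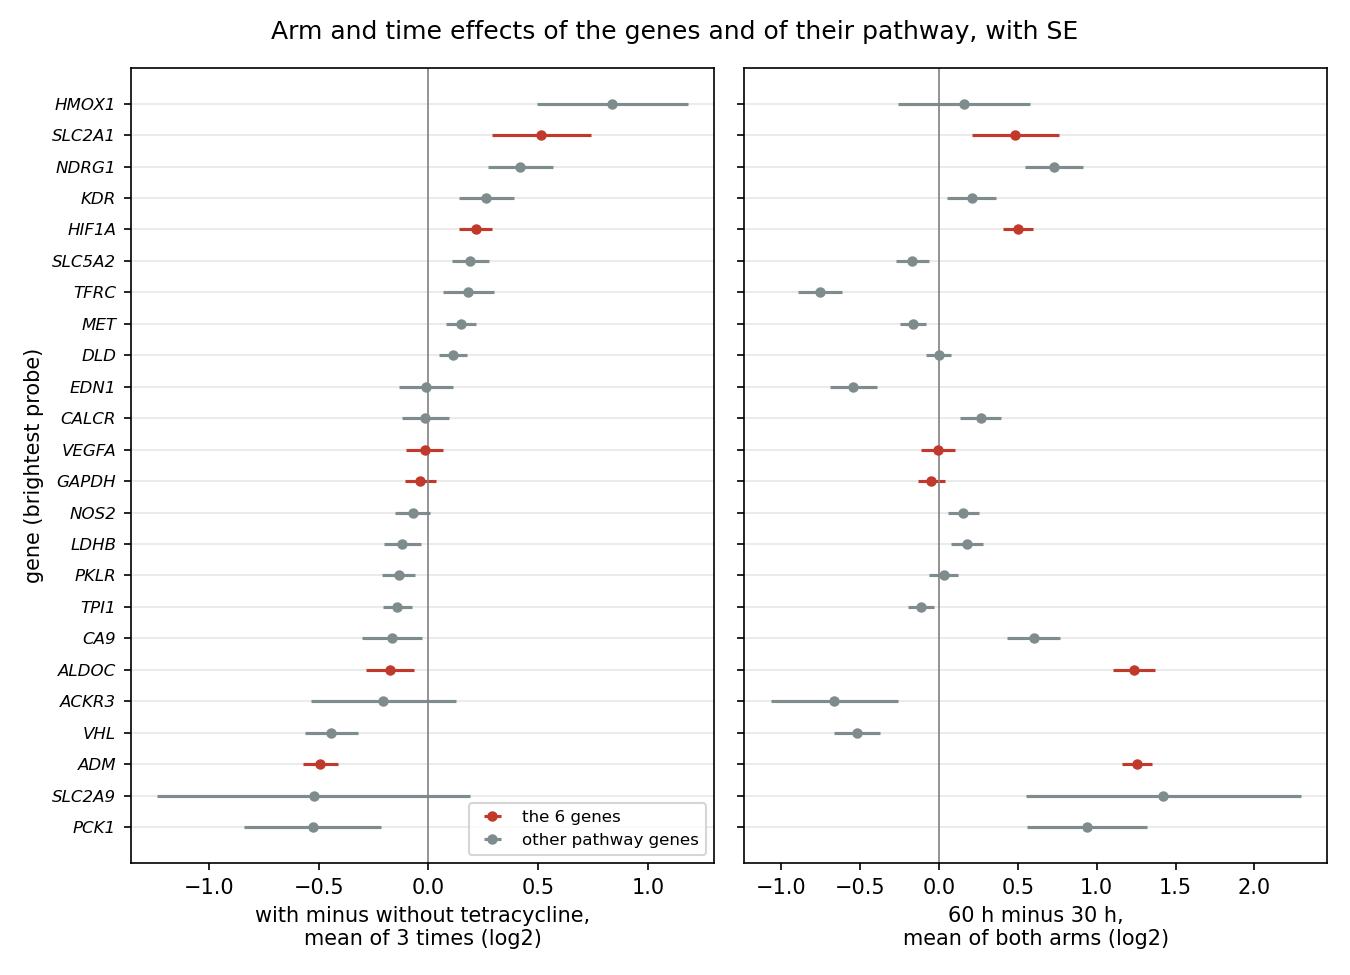
Difference between the arms (with minus without tetracycline, mean of 3 times, left) and change from 30 h to 60 h (mean of both arms, right), in log2 units on the x axes with SE bars from limma, for the 6 genes (red) and 18 other pathway genes (grey) at their brightest probe, ordered by the left value. ADM and ALDOC have the called changes over time at 1.26 and 1.24, and HMOX1 lies farthest right of those plotted for the arms at 0.84.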

How the data were processed

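The deposited scanner files hold linear spot intensity from Agilent Feature Extraction 11.5.1.1 (per the submitters' processing notes and the file headers), background-subtracted and detrended, on an array of build CanFam3.1. The deposited series matrix holds the same intensity times 1 factor per array (2.30 to 2.62; column medians 150.9 to 171.5), linear and not centred, and the origin of that factor is unknown. Outlier spots were left out and spots of a probe averaged as log2 signal, scaled to each array's 75th percentile. Names came by accession through RefSeq (UU_Cfam_GSD_1.0, names only): 2326 of 43603, and 19 were dropped. Each of 28178 probes well above background on all 3 arrays of an arm was tested with limma 3.58.1 in R 4.3.3 (two-sided, Benjamini-Hochberg), arm plus 3-level time (2 residual degrees of freedom), and arm by linear time for the slope (1). Named are every member probe, up to 6 genes per list with the largest effects (3 each for arm and time), and 3 correlated genes per member; 1 list gene is counted but not reported here. Alternatives covered scaling, background, detection, prior, slide and left-out arrays; single left-out arrays were added after seeing the data. The normexp correction used median spot signal (offset 50). Fits were tested on simulated data. Members and lists were chosen with earlier results of these data known. Number of arrays limits precision.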

Additional observations from a re-analysis of the deposited data

Results flagged for a closer look

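Steps in level from 30 h to 60 h that ran in opposite directions in the 2 arms were seen at 7 of the 18 probes, against 31.7% of all probes. With 1 array per arm and time there is no replicate of a step. The difference between the arms' steps was tested as the slope, which passed for none of the 7 (limma), though SLC2A1 probe 1 passed with normexp (adjusted p = 0.00737) and with a trended and robust prior (0.00690). Under other scalings 3 to 7 of the 18 had opposite steps, the SLC2A1 probes always among them. At SLC2A1 probe 1 the step was 1.04 with and -0.071 without tetracycline, and at probe 2 it was 1.09 with and -0.15 without. VEGFA probe 1 gave 0.048 with and -0.060 without. For GAPDH the steps were -0.076 with and 0.023 without at probe 2, -0.062 with and 0.022 without at probe 3, -0.11 with and 0.039 without at probe 4, and -0.12 with and 0.012 without at probe 5. Only the SLC2A1 values with tetracycline reach 2-fold.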

How the results depend on the processing

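Of the calls among the 6 genes, those of ADM and ALDOC over time were lost with no detection filter (adjusted p = 0.163), with slide in the model, without a term for arm and with any array left out, while their direction stayed in every setting tried. Without replicate arrays there is no spread between cultures. Single arrays left out were chosen after seeing the data. Between the arms, leaving out a single array gave the same fit as leaving out its pair. A term for slide there gave the same fit as leaving out the 45 h pair. The cause of each shift below was not tested.

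For the arms over the 3 times, 0 probes passed (limma), against 89 with normexp (14 higher, 75 lower), 20 with a trended and robust prior, 21 without a term for time, 6570 at an unadjusted p under 0.05 and 0 to 1 with a pair or array left out. For 30 h to 60 h, 2299 passed, against 3652 with normexp, 3850 with the trended prior, 8845 unadjusted, and 0 with no detection filter, with slide in the model, without a term for arm, and with any array or the 45 h pair left out (0 to 0). The split of 1111 higher and 1188 lower became 955 and 1863 with each array less its median. For the slope, 0 passed, against 301 with each array less its median, 1592 with normexp, 2 among probes detected on all 6 arrays, 1842 with the trended prior and 5381 unadjusted.

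Counts of probes at least 2-fold apart fell with normexp and when both arrays had to be well above background. Between the arms, 1033, 1520 and 2333 at 30, 45 and 60 h became 104, 219 and 654 with normexp, and 222, 571 and 1266 when detected on both. With tetracycline, 1142 (30 h to 45 h), 1147 (45 h to 60 h) and 1992 (30 h to 60 h) became 91, 104 and 414, and 281, 317 and 999. Without tetracycline, 1171, 1463 and 2408 became 72, 150 and 505, and 245, 520 and 1200.

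In the fits over times or arms, signs turned for VEGFA and GAPDH and for no other of the 6 genes at its brightest probe. For GAPDH between the arms they were 0.058 with normexp, 0.0053 with slide, and -0.063 to 0.0053 with a pair or array left out. GAPDH was 0.080 from 30 h to 60 h with slide and -0.013 from 45 h to 60 h with normexp, and its slope was 0.016 with quantile scaling and 0.025 with each array less its median. VEGFA between the arms was -0.095 to 0.048 with a pair or array left out. From 30 h to 60 h VEGFA was 0.068 with quantile scaling, 0.071 with normexp, and -0.11 to 0.092 with an array left out. The slope could not be fitted with slide or with an array left out, nor the change from 30 h to 60 h without either of those pairs, since no residual degree of freedom or no contrast is left.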
